A study of Mus musculus with 12 samples.

Results

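The 10 genes described here are Ppargc1a, which encodes the transcriptional coactivator PGC-1α, and the regulators of mitochondrial biogenesis that work with it: Ppargc1b, Esrra, Esrrg, Nrf1, Gabpa, Tfam, Sirt1, Sirt3 and Ppara. They were taken by symbol, as regulators with a shared role, when earlier results of these data were already known. All 10 were among the 48709 genes of the count files, and all 10 passed the filter on low counts that left 18847 genes for testing. Gene expression was measured by poly(A) RNA sequencing in primary hippocampal cultures of CD1 mice, prepared at embryonic day 17 (E17) from the pooled hippocampi of several embryos, so that a culture stands for a pool of animals and holds neurons together with glial cells. Lipid nanoparticles, given with apolipoprotein E4 in the study's culture protocol, delivered a miR-148a-3p mimic (a duplex RNA made to act as the mature microRNA) to 6 mimic cultures and a negative control oligonucleotide to 6 control cultures. Treatment began at day 10 in vitro and lasted 48 h, with harvest at day 12. No genotype or other agent separated the groups, and every library, controls included, came from cells that had received nanoparticles. The comparison asks whether the transcripts of these regulators changed when miR-148a-3p was raised in hippocampal cells. Nothing in the labels says that the 6 libraries of a group came from separate preparations, so p-values measure the spread between these libraries, which may be technical in part.

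PGC-1α does not bind DNA itself. It docks on nuclear receptors such as the estrogen-related receptors and PPARα and on nuclear respiratory factor 1 (NRF-1), and through them raises transcription of nuclear genes for respiration, fatty acid oxidation and mitochondrial DNA upkeep, among them Tfam, whose protein packages the mitochondrial genome and helps to start its transcription. SIRT1 deacetylates PGC-1α and SIRT3 deacetylates proteins inside mitochondria. In brain, PGC-1α is known for its part in mitochondrial supply of axons and synapses, in defence against reactive oxygen species and in fast-spiking interneurons.

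A microRNA finds its transcripts mainly through its seed, bases 2 to 8. Both oligonucleotides of the reagent list are shown, with the seed in capitals, because the seed fixes which members carry a matching site. The mimic has the same letters as mature mmu-miR-148a-3p in RefSeq, which lies at chr6:51269829-51269850 on the minus strand (GRCm38.p6). The labels describe the control as a siRNA, so the control seed applies only if the listed sequence is the one that was used.
miR-148a-3p mimic: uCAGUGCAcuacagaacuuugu
negative control: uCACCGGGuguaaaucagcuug

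A site was a stretch of the longest annotated 3 prime untranslated region (UTR) that pairs with bases 2 to 8, or with bases 2 to 7 followed by an A, and an 8-base site has both. A site for the mimic seed was present in 3 of the 10 members, against 3306 of 15082 tested genes with a 3 prime UTR (21.9%). None of the 10 members had a site for the control seed, which 666 of the 15082 genes carried. The sites are shown in transcript orientation with the matched bases in capitals.
Ppargc1a, chr5:51457011-51457017, minus strand: gttacagctaTGCACTGtaaatgcagc
Esrrg, chr1:188211252-188211259, plus strand: atcaacagacTGCACTGAtattttagca
Nrf1, chr6:30152890-30152897, plus strand: cagtgtggctTGCACTGAgcagtcattg
Coordinates are on mm10 (GRCm38). The Ppargc1a site is a 7-base match 1163 bases into a UTR of 3930 bases, and only 1 of its 2 coding transcripts with an annotated UTR holds it. The 8-base site of Esrrg begins 113 bases into a UTR of 3746 bases and is in 3 of 3 such transcripts, whereas the 8-base site of Nrf1, at base 1213 of 1781, is in 2 of 11.

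Library totals ranged from 20018234 to 37149112 counts, and control replicates 1 and 2 were the shallowest. Levels are given as CPM, the usual count of a gene per fixed number of counts in the library, relative to library totals scaled by TMM normalization, with the mean ± SD of each group's 6 libraries. Changes are log2 fold changes of mimic against control from edgeR's quasi-likelihood test with Benjamini-Hochberg adjustment over all 18847 genes, and a gene was called at an adjusted p under 0.05. In this comparison 22.2% of all tested genes were called, 11.5% higher and 10.7% lower in mimic. Of the 10 members, 2 were called, Ppargc1a and Ppara, both higher, and none was called lower, by DESeq2 either, with 0 of 10 lower at an unadjusted p under 0.05. An unadjusted p under 0.05 was found for 5 of the 10 members and for 32.7% of all tested genes. The median log2 fold change was 0.092 over the members (range -0.0049 to 0.40) and -0.012 over all tested genes. With 2 of 10 members called against 22.2% of all genes, the share of called members was close to the background.

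**Figure D1:**
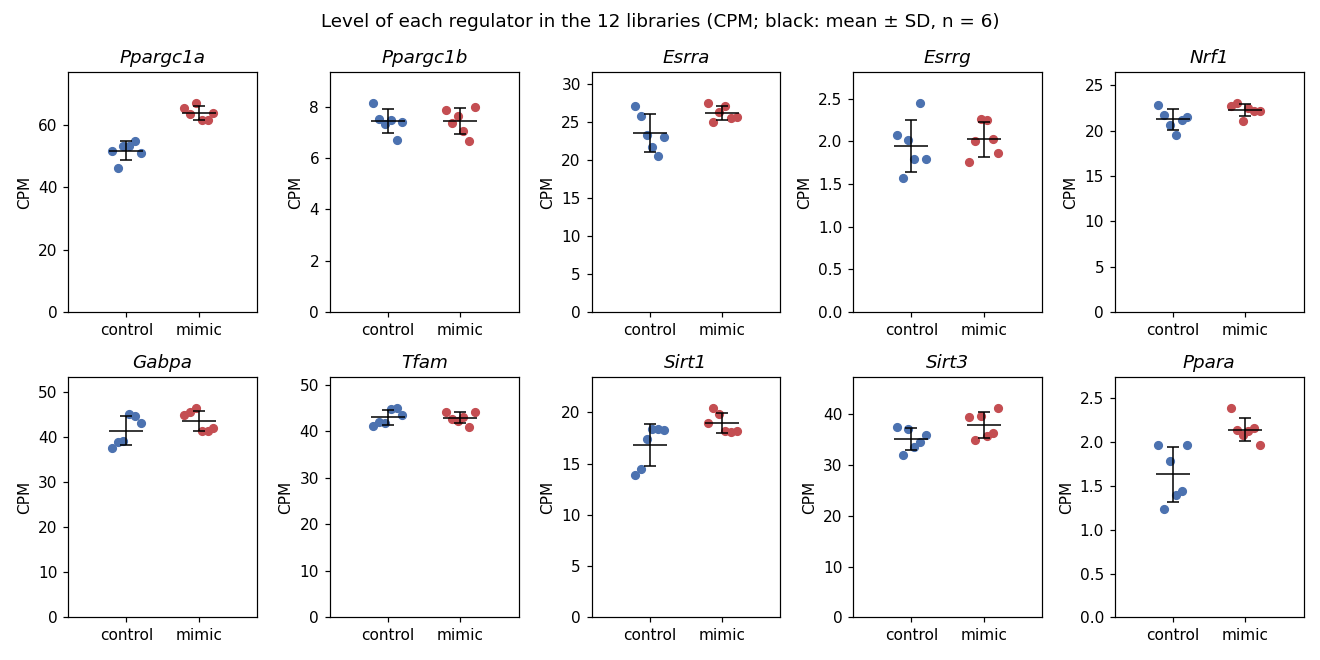
Level of each of the 10 regulators (CPM, vertical axes from 0) in the 6 control and 6 mimic libraries, 1 point a library, with black bars for mean ± SD. The Ppargc1a points of the 2 groups are apart, with controls at 46.3 to 54.8 CPM and mimics at 61.5 to 66.9 CPM, while the points of every other member overlap between the groups.

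Ppargc1a was higher in mimic by 23.2%, the clearest change among the members. It lies at chr5:51454250-51567726 on the minus strand (ENSMUSG00000029167). In the control libraries it lay between 46.3 and 54.8 CPM with a median of 52.3, and in the mimic libraries between 61.5 and 66.9 CPM with a median of 63.7. The lowest control was replicate 2, and the lowest mimic library stood above the highest control, so that 6 of 6 mimic libraries were above every control. Among all tested genes, 13.3% showed groups that did not overlap. The group means were 51.7 ± 2.98 and 63.8 ± 2.11 CPM (SD, n = 6 each). The log2 fold change was 0.30 with an SE of 0.042 (edgeR adjusted p = 3.98e-05), and the 95% interval of the ratio ran from 1.16 to 1.31. Because the cultures are mixtures, more cells of a type that expresses the gene and more RNA per cell cannot be told apart. The summed level of 6 neuron markers was 5487 ± 241 CPM in control and 5378 ± 93.3 in mimic, with overlapping ranges. Map2 was the largest of them, at 2362 ± 185 CPM in control. Tubb3 was called lower, from 802 ± 30.0 to 644 ± 26.4 CPM (log2 fold change -0.32, edgeR adjusted p = 4.65e-06). Map2 and Rbfox3 had negative estimates and Snap25, Syt1 and Slc17a7 positive ones, none of them called. The summed level of 6 astrocyte markers was 4661 ± 172 CPM in control and 5254 ± 180 in mimic, with ranges that did not overlap. The astrocyte markers went different ways, with Slc1a3 at 913 ± 53.8 CPM in control and 1815 ± 27.6 in mimic and Gfap at 1362 ± 70.2 and 731 ± 107, and with Slc1a2, Aldh1l1 and Gja1 called higher by 0.17 to 0.29 on the log2 scale. Without Slc1a3 the sum of the other 5 was 3748 ± 131 CPM in control and 3439 ± 165 in mimic, and without Gfap it was 3298 ± 222 and 4523 ± 116. Their part in the change of Ppargc1a was not tested. Ppargc1a carried the 7-base site for the mimic seed shown above, and its level was higher, not lower, in the cultures that received the mimic.

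Ppargc1b encodes PGC-1β, the closest paralog of PGC-1α, which works with many of the same receptors. Its control libraries lay between 6.70 and 8.13 CPM with a median of 7.45, and its mimic libraries between 6.68 and 7.98 with a median of 7.51. Both groups covered nearly the same range. The log2 fold change was 0.0052 with an SE of 0.063 and a 95% interval from -0.13 to 0.14 (edgeR adjusted p = 0.972), an interval that lies below the estimate for Ppargc1a. A test of the difference between the paralogs was not run. Per kilobase of exon, Ppargc1a stood 4.23 ± 0.441 times above Ppargc1b in control (range 3.72 to 4.95) and 5.21 ± 0.253 times above it in mimic (range 4.85 to 5.58), so the ranges of this ratio of levels met at their edges. With the mean length of the coding transcripts in place of the union of exons, the ratio was 7.55 ± 0.787 in control and 9.29 ± 0.451 in mimic.

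Among the nuclear receptors, Ppara was called and Esrra and Esrrg were not. Ppara encodes PPARα, a fatty acid sensor that drives oxidation genes, and it was scarce in these cultures, with 29 to 72 counts a library. Its control libraries lay between 1.23 and 1.97 CPM with a median of 1.61, and its mimic libraries between 1.97 and 2.38 with a median of 2.13. In all, 5 of the 6 mimic libraries were above the highest control, and 5 of the 6 controls were below the lowest mimic library. The groups touched at 1.97 CPM, where controls 1 and 6 and mimic 6 sat together. The means were 1.63 ± 0.317 and 2.14 ± 0.136 CPM, and the log2 fold change was 0.40 with an SE of 0.12 (edgeR adjusted p = 0.0224). This was the largest estimate among the members, and its 95% interval, from 0.15 to 0.65, was also wide. The call was lost when control replicate 4 (0.35, adjusted p = 0.0550), control replicate 5 (0.36, adjusted p = 0.0537) or mimic replicate 1 (0.37, adjusted p = 0.0530) was left out of the edgeR fit. Ppara lies at chr15:85734983-85802819 on the plus strand.

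Esrra encodes the estrogen-related receptor alpha (ERRα), the main partner of PGC-1α on respiratory chain genes, and lies at chr19:6910977-6921813. Its control libraries spread from 20.5 to 27.1 CPM with a median of 23.1, and its mimic libraries from 25.0 to 27.5 with a median of 25.9. The controls that reached into the mimic range were replicates 1 and 2, at 27.1 and 25.8 CPM, and the other 4 lay at 20.5 to 23.3 CPM, below every mimic library. The log2 fold change over all libraries was 0.16 with an SE of 0.060 (edgeR adjusted p = 0.0678), which missed the threshold. Esrra was called when control replicate 1 was left out (0.20, edgeR adjusted p = 0.00495) and when control replicate 2 was (0.19, adjusted p = 0.0367). Without both it was 0.24 (edgeR adjusted p = 0.000153), and DESeq2 on all libraries also called it (adjusted p = 0.0478). In the fits that left out any other single library it was not called. The lowest estimate, 0.12 (edgeR adjusted p = 0.151), came without control replicate 5. With upper-quartile scaling it was 0.14 (edgeR adjusted p = 0.101). Control replicates 1 and 2, the controls with the highest Esrra levels, were the shallowest libraries. They also had the lowest mitochondrially encoded shares of counts. Whether depth or RNA composition had a part in the Esrra level was not tested. Esrrg, the gene of estrogen-related receptor gamma and a carrier of an 8-base mimic site, was scarce, at 1.95 ± 0.303 CPM in control and 2.03 ± 0.204 in mimic. With a mean of 59.8 counts a library, its log2 fold change of 0.052 had a 95% interval from -0.19 to 0.29 (edgeR adjusted p = 0.810), so neither a modest fall nor a modest rise was detectable at this depth.

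**Figure D2:**
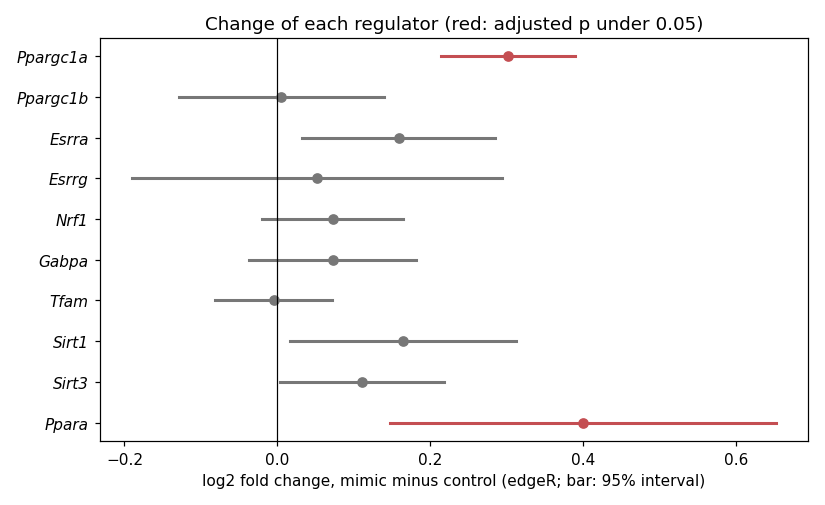
Log2 fold change of mimic against control for each regulator (horizontal axis), with the 95% interval from the edgeR fit as a bar, and red for an adjusted p under 0.05. Ppargc1a at 0.30 and Ppara at 0.40 are red, and the intervals of Ppargc1b, Esrrg, Nrf1, Gabpa and Tfam include 0.

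Neither of the nuclear respiratory factors was called. Nrf1 encodes NRF-1, a factor for respiratory chain and import genes, and carries an 8-base mimic site. It lay between 19.6 and 22.9 CPM in control and between 21.1 and 23.0 in mimic. The groups overlapped over most of their range. Its log2 fold change was 0.072 with a 95% interval from -0.020 to 0.16 (edgeR adjusted p = 0.279). Gabpa encodes the DNA-binding subunit of GABP, also known as NRF-2. Its control libraries lay between 37.6 and 45.0 CPM (median 41.0) and its mimic libraries between 41.3 and 46.3 CPM (median 43.4). Control replicates 1, 2 and 3 were at 37.6, 38.9 and 39.0 CPM, below every mimic library, while control replicates 4, 5 and 6, at 45.0, 44.6 and 42.9 CPM, were above mimic replicates 4, 5 and 6, at 41.3, 41.3 and 42.0 CPM. The log2 fold change was 0.072 with a 95% interval from -0.037 to 0.18 (edgeR adjusted p = 0.366), and it was 0.023 without control replicates 1 and 2. Gabpa shares 397 bases with Atp5j on the opposite strand, a gene with a mean of 2838 counts, and the strand setting of the counting is not given in the sources used here, so some of these reads cannot be told apart.

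Tfam had the estimate nearest 0 of the 10 members, with Ppargc1b almost as near. In control it lay between 41.2 and 44.9 CPM with a median of 42.7, and in mimic between 41.0 and 44.1 with a median of 42.9. The mimic range fell almost wholly inside the control range. The log2 fold change was -0.0049 with an SE of 0.036 and a 95% interval from -0.081 to 0.071 (edgeR adjusted p = 0.949). The interval of Tfam therefore lies below that of Ppargc1a, from 0.21 to 0.39, without overlap. A test of the difference was not run.

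The transcripts of the mitochondrial genome, which TFAM packages, held equal mean shares of counts over all libraries. Of the 13 protein-coding mitochondrial genes, 7 had counts, and mt-Nd3, mt-Nd4l, mt-Co2, mt-Co3, mt-Atp6 and mt-Atp8 are listed at 0 in all 12 libraries, although every cell uses them. The 7 genes together held 2.83% ± 0.569 of the counts in control (range 1.98% to 3.32%) and 2.83% ± 0.233 in mimic (range 2.49% to 3.13%). Control replicates 1 and 2 had the lowest shares of all libraries, at 1.98% and 2.26%. The difference in the mean share was 0.00077 percentage points (two-sided exact permutation p = 1.0, for which 0.00216 is the smallest value these samples can give). Without control replicate 1 it was -0.169, and without control replicate 2 it was -0.112. The other 4 controls held 2.96% to 3.32% (mean 3.18%). Without both low controls, a choice made after seeing the data, the difference was -0.353 percentage points (two-sided exact permutation p = 0.0333). Because these were the lowest shares of all libraries, leaving them out made a negative difference certain, so this p tests nothing. None of the 7 genes was called by edgeR or by DESeq2, with 0 at an unadjusted p under 0.05 in edgeR. Once control replicates 1 and 2 were both left out, 3 were called lower, which rests on the same choice of libraries. Over all libraries the log2 fold changes of the 7 genes ran from -0.082 to 0.051.

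Neither deacetylase was called, and both had positive estimates. Sirt1, which encodes the nuclear NAD-dependent deacetylase of PGC-1α, lay between 13.9 and 18.4 CPM in control (median 17.9) and between 18.1 and 20.4 in mimic (median 18.6). The low controls were replicates 1 and 2, at 13.9 and 14.5 CPM, and the other 4 lay at 17.4 to 18.4 CPM, next to mimic replicates 4, 5 and 6 at 18.1 to 18.2. The log2 fold change was 0.16 with an SE of 0.070 (edgeR adjusted p = 0.108), and it dropped to 0.066 (adjusted p = 0.324) without control replicates 1 and 2. Control replicates 1 and 2 had the highest Esrra levels and the lowest Sirt1 levels among the controls. Leaving them out therefore had to raise the Esrra estimate, to 0.24, and to lower that of Sirt1, to 0.066. Sirt3, which encodes the main deacetylase of the mitochondrial matrix, was at 35.1 ± 2.13 CPM in control (32.0 to 37.5) and 37.9 ± 2.49 in mimic (35.0 to 41.2). Of the mimic libraries, 3 were above every control. Its log2 fold change was 0.11 with an SE of 0.051 (edgeR adjusted p = 0.138). Sirt3 shares 418 bases with Ric8a and 342 with Psmd13 on the opposite strand, and neither of these neighbours was called.

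**Figure D3:**
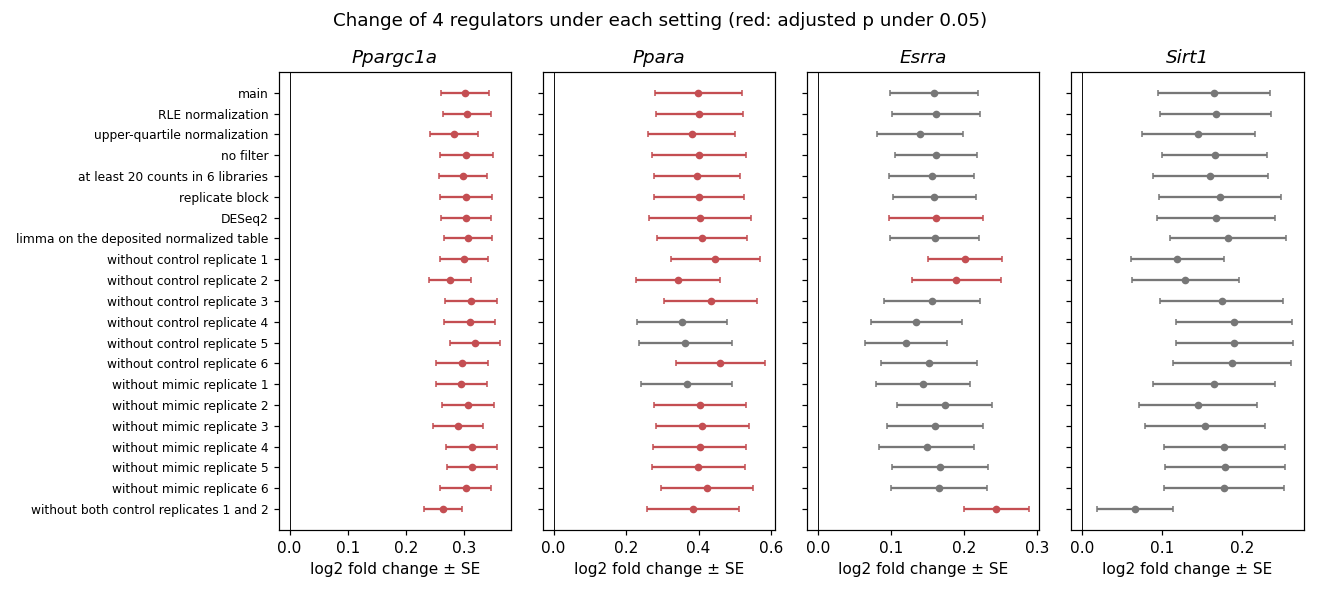
Log2 fold change ± SE of Ppargc1a, Ppara, Esrra and Sirt1 (horizontal axes) under each normalization, filter, tool and left-out library (vertical axis), red where the adjusted p is under 0.05. All Ppargc1a points are red, between 0.26 and 0.32. The Esrra points are red with DESeq2 and without control replicate 1, control replicate 2 or both (0.24), and grey in every other setting.

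Levels can be set against each other only per length, as CPM per kilobase of exon. On this scale Tfam was the most abundant member in control, at 9.69, followed by Ppargc1a at 7.84, Gabpa at 7.27, Sirt3 at 5.88, Esrra at 5.37, Sirt1 at 3.15, Nrf1 at 2.07, Ppargc1b at 1.86, Ppara at 0.425 and Esrrg at 0.314. The control ranges overlapped between the neighbours Ppargc1a and Gabpa, Sirt3 and Esrra, Nrf1 and Ppargc1b, and Ppara and Esrrg, so the order within these pairs is not fixed by the data. In mimic, Ppargc1a reached 9.67 ± 0.321, level with Tfam at 9.66 ± 0.267. The order depends on which length is used. With the mean length of the coding transcripts in place of the union of exons, Sirt3 came first in control at 32.8, ahead of Tfam at 27.2, Esrra at 21.2 and Ppargc1a at 16.0.

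**Figure D4:**
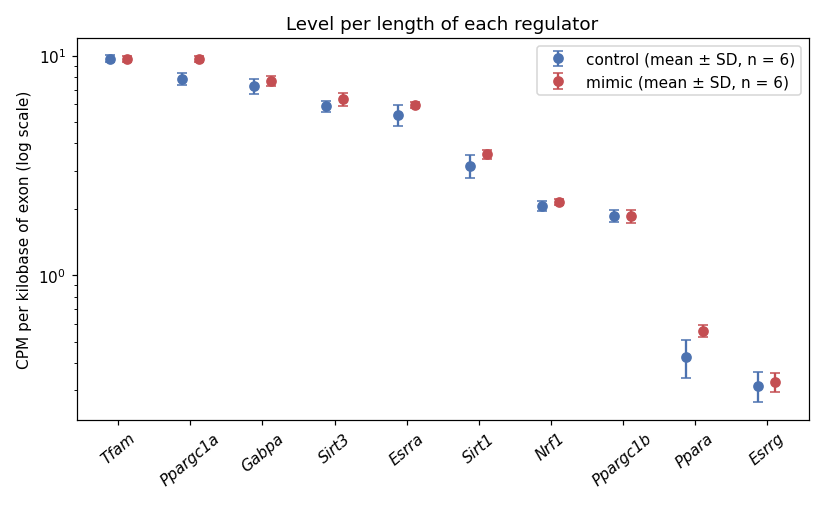
Level per length of each regulator (CPM per kilobase of exon, log scale) in control and mimic, as mean ± SD over 6 libraries. Tfam is highest in control at 9.69, Ppargc1a meets it in mimic at 9.67, and Ppara and Esrrg lie lowest, at 0.425 and 0.314 in control.

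The promoters of the members were searched for sites of factors from the same network, since several members regulate each other. RefSeq start sites on GRCm38.p6 gave 14 windows for the members with an entry there, each from 250 bases before to 50 after the start. The ETS site bound by GABP, searched on both strands as CCGGAAG, was in 8.86% of 32851 windows and in 3 of the 14, and the NRF-1 site, GCGCATGCG on either strand, was in 1.75% and in 1 of the 14, where the matches on both strands overlap. The matches are shown with the motif in capitals, in the direction of the gene.
Tfam, in chr10:71237995-71238294, 47 bases before the start: gccgcggaCCGGAAGtccgggct
Gabpa, in chr16:84834874-84835173, 93 bases before the start: ggtaagtgCTTCCGGgtccctca
Sirt3, in chr7:140882260-140882559, 85 bases before the start: ctcgctcaCTTCCGGcaccgcgg
Ppara, in chr15:85735526-85735825, 31 bases before the start: gctcggtgGCGCATGCGcgcggact
None of the 14 windows held the estrogen-related receptor element TCAAGGTCA (0.423% of all windows), its shorter core AAGGTCA (4.72%) or the cAMP response element TGACGTCA (1.79%). The windows with the ETS site belong to Tfam, Gabpa and Sirt3, none of which was called, and the NRF-1 match belongs to Ppara, which was.

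The genes around the regulators were described by 7 lists holding 164 tested genes, of which 25 were called higher and 16 lower (25.0%, beside 22.2% of all tested genes). With upper-quartile in place of TMM scaling the counts were 22 higher and 24 lower. Their median log2 fold change was -0.0051, against -0.012 over all genes.

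**Figure D5:**
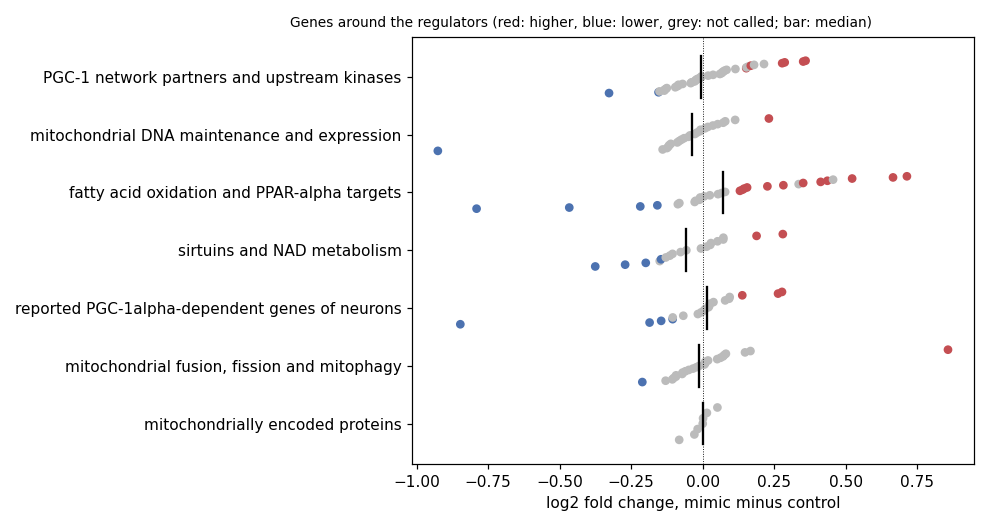
Log2 fold change of mimic against control (horizontal axis) for each tested gene of the 7 lists (vertical axis), red for called higher, blue for called lower, grey for not called, with a black bar at the list's median. Fatty acid oxidation and PPARα targets has 12 red and 4 blue points, and mitochondrially encoded proteins has neither.

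Of 40 partners and upstream kinases of PGC-1α, 6 rose and 2 fell, with a median log2 fold change of -0.0052. The number that fell was 5 with upper-quartile scaling or without control replicate 1, and 7 without control replicates 1 and 2. Subunits of the AMP-activated protein kinase, which phosphorylates PGC-1α when energy is low, gave 1 of 6 genes higher, 2 lower and 3 not called. The regulatory subunit gene Prkab1 rose from 21.5 ± 1.78 to 27.6 ± 1.97 CPM (log2 fold change 0.36, SE 0.059, edgeR adjusted p = 0.000235), while the catalytic subunit gene Prkaa1 fell from 43.9 ± 3.92 to 35.0 ± 2.44 CPM (-0.33, SE 0.060, adjusted p = 0.000599). Prkag2, another regulatory subunit gene, fell from 82.9 ± 2.43 to 74.5 ± 1.16 CPM (-0.15, SE 0.031, edgeR adjusted p = 0.00147). The uncalled subunit genes were Prkaa2, the other catalytic subunit gene, at 47.4 ± 5.63 CPM in control and 53.1 ± 3.07 in mimic (log2 fold change 0.16, edgeR adjusted p = 0.103), Prkab2 (-0.039, adjusted p = 0.565) and Prkag1 (0.18, adjusted p = 0.0899). Foxo3, the gene of a forkhead factor that responds to stress and works with PGC-1α, rose from 63.7 ± 2.66 to 81.3 ± 2.77 CPM (0.35, SE 0.037, edgeR adjusted p = 2.21e-06). The other called genes of this list, named after their values were seen, were Thrb, Gabpb2, Yy1 and Mapk14, all higher by 0.15 to 0.29 on the log2 scale. Gabpb2 encodes a partner subunit of GABPα, and it rose from 23.3 ± 1.37 to 28.3 ± 0.984 CPM while Gabpa itself was not called.

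The list of fatty acid oxidation genes and PPARα targets had the highest share of calls among the 7 lists, 16 of 30 tested genes (53.3%). Over all tested genes the share was 22.2%, 11.5% higher and 10.7% lower. Of the list, 12 were higher and 4 lower, with a median log2 fold change of 0.072. Across the alternatives 9 to 13 were called higher and 4 lower. Ucp3, Fgf21, Cyp4a10 and Cyp4a14 were on the list but too low to test. Hadh, which encodes a dehydrogenase of mitochondrial β-oxidation, rose from 28.2 ± 1.60 to 46.3 ± 1.31 CPM (log2 fold change 0.71, SE 0.042, edgeR adjusted p = 3.00e-09). Acads, the short-chain acyl-CoA dehydrogenase gene, rose from 8.55 ± 0.428 to 12.3 ± 1.18 CPM (0.52, SE 0.066, edgeR adjusted p = 1.53e-05). Pdk4, whose product restrains pyruvate oxidation, fell from 6.23 ± 0.474 to 4.50 ± 0.365 CPM (-0.47, SE 0.074, edgeR adjusted p = 0.000156). Vnn1 and Eci2, named after their values were seen, also fell. In the same libraries 4 of 6 astrocyte markers were called higher and 1 lower, with none of the 6 at 0. The one called lower was Gfap. The summed astrocyte level was 4382 to 4842 CPM in control and 5057 to 5562 in mimic, without Slc1a3 it was 3524 to 3910 and 3258 to 3714, and without Gfap it was 2944 to 3488 and 4435 to 4749. All 4 markers of proliferating cells were called higher, with summed levels of 136 to 170 CPM in control and 290 to 307 in mimic. Of 6 oligodendrocyte lineage markers, 4 were called higher, with summed levels of 388 to 677 CPM in control and 763 to 957 in mimic. The part of these cells in the changes of the list was not tested.

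Genes for upkeep and expression of mitochondrial DNA had 1 of 24 called higher and 1 lower (8.33%, beside 22.2% of all tested genes). Their median log2 fold change was -0.036. The lower count was 2 with upper-quartile scaling, or without control replicate 1, mimic replicate 3 or mimic replicate 4. Polg, the gene of the mitochondrial DNA polymerase, rose from 62.8 ± 4.87 to 73.7 ± 4.12 CPM (log2 fold change 0.23, SE 0.051, edgeR adjusted p = 0.00284). Mterf1b, singled out after its value was seen, was lower but rested on a mean of 13.3 counts a library. Mitochondrial fusion, fission and mitophagy had 1 of 25 genes higher and 1 lower, with a median of -0.012. The higher count was 2 without control replicate 1 and 3 without control replicates 1 and 2. The lower count was 4 with upper-quartile scaling, 3 without control replicate 1 and 5 without control replicates 1 and 2, and it was 0 without the low-count filter or without any 1 of control replicate 2 and mimic replicates 1, 3, 5 and 6. Oma1, which encodes a protease of the inner membrane, fell from 8.54 ± 0.529 to 7.36 ± 0.721 CPM (-0.21, edgeR adjusted p = 0.0390), a call lost when any 1 of 6 libraries, control replicates 2 and 4 or mimic replicates 1, 3, 5 and 6, was left out. Mtfr2, named after its value was seen and scarce at 56.8 counts, was higher by 0.86 on the log2 scale.

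Of 19 genes of sirtuins and NAD metabolism, 2 rose and 4 fell, with a median of -0.057. Nadk, the NAD kinase gene, rose from 86.5 ± 3.53 to 105 ± 3.75 CPM (log2 fold change 0.28, SE 0.036, edgeR adjusted p = 2.19e-05). Parp1, whose product consumes NAD at sites of DNA damage, rose from 101 ± 4.91 to 115 ± 5.00 CPM (0.19, SE 0.040, edgeR adjusted p = 0.00221). Nnmt, which encodes a methyltransferase that uses nicotinamide, fell from 5.37 ± 0.368 to 4.15 ± 0.629 CPM (-0.38, SE 0.095, edgeR adjusted p = 0.00763). Naprt, a gene of NAD synthesis from nicotinic acid, fell by 0.27 on the log2 scale (edgeR adjusted p = 0.0389), and this call was lost without any 1 of 8 libraries, control replicates 1 to 3 and mimic replicates 1, 2, 4, 5 and 6. The other genes that fell, named after their values were seen, were Sirt7 and Nmnat2. Sirt1 and Sirt3 themselves were not called.

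Of 20 genes held in the literature to depend on PGC-1α in neurons, 3 rose and 4 fell, with a median of 0.015. Without mimic replicate 1 or 2 only 2 fell, and without control replicates 1 and 2 together 5 rose. Bdnf, the gene of brain-derived neurotrophic factor, rose from 92.1 ± 7.19 to 112 ± 8.58 CPM (log2 fold change 0.28, SE 0.057, edgeR adjusted p = 0.00160). Fndc5, which encodes the precursor of irisin, rose from 25.0 ± 0.893 to 30.0 ± 0.991 CPM (0.26, SE 0.039, edgeR adjusted p = 7.81e-05). Txn2, the mitochondrial thioredoxin gene, fell from 96.3 ± 9.20 to 84.6 ± 1.70 CPM (-0.19, SE 0.051, edgeR adjusted p = 0.0133), and the fall was -0.11 without control replicates 1 and 2. Cplx1, a synaptic complexin gene, fell by 0.15 on the log2 scale (edgeR adjusted p = 0.0292), by 0.082 without those controls, and the call was lost without control replicate 2 or mimic replicate 1, 2 or 3. Named after their values were seen, Atp5o was the other gene that rose, and Pvalb and Cat were the others that fell. Pvalb, the parvalbumin gene of fast-spiking interneurons, went from 3.25 ± 0.633 to 1.83 ± 0.405 CPM (-0.85, SE 0.15, edgeR adjusted p = 0.000538) in the libraries where Ppargc1a was higher. The summed level of 6 interneuron markers, Pvalb among them, was 286 to 320 CPM in control and 303 to 320 in mimic. Gad1 and Gad2 made up most of this sum, at 176 and 81.4 CPM in control. Gad2 was called higher (log2 fold change 0.14, edgeR adjusted p = 0.0129), and Gad1 was not called (0.043). Slc32a1 (-0.11), Sst (-0.16) and Npy (-0.26) had negative estimates and were not called. The median over the 6 markers was -0.13.

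Within the groups, the libraries in which Ppargc1a was higher were compared with those in which other genes were, after the group mean of each gene's log2 CPM was subtracted. Over these 12 libraries, among 12370 genes averaging 100 counts or more, those most like Ppargc1a were Atp2a2 (Pearson r = 0.961), Prickle2 (0.959), Lgr4 (0.932), Vldlr (0.929) and Kcna2 (0.907). Across libraries left out in turn, the lowest of these values was 0.756, for Kcna2. Among the other members, r with Ppargc1a was 0.63 for Sirt1, 0.59 for Gabpa, 0.55 for Esrrg and Sirt3, 0.45 for Tfam, 0.28 for Ppara, 0.023 for Ppargc1b, -0.46 for Nrf1 and -0.53 for Esrra. All of these member values lie between the 5th and 95th percentile over the compared genes, -0.59 and 0.66. Of the summed marker levels, those of neurons had r = 0.71, of astrocytes 0.58, of interneurons 0.48 and of proliferating cells 0.14. The sums for microglia (0.031) and oligodendrocyte lineage (-0.0069) were near 0. Endothelial (-0.25), multiciliated ependymal (-0.37) and mesenchymal markers (-0.43) had negative values. These are descriptions without a test, because the 12 points share depth and culture makeup and control replicates 1 and 2 stand apart in several of the measures.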

How the data were processed

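The authors checked reads with FastQC 0.11.5, aligned them to mm10 with STAR 2.5.2b and made gene counts with featureCounts (Subread 1.5.1), per the labels. The deposited count files, 1 for each of the 12 libraries, hold raw counts of 48709 genes. Whether strand was used is not given in the sources used here. The authors also deposited a normalized signal table of 18289 genes, counts divided by size factors of 0.673 to 1.26, which served 1 alternative. All of its values lay within 1% of the count divided by its factor.

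Genes were named by GENCODE M21 (48349 matched). Genes with at least 5 counts in 6 of 12 libraries (50%), the study's filter, were tested with edgeR 4.0.16 (R 4.3.3, glmQLFit robust, TMM, no covariate). Standard errors are the log2 fold change divided by the square root of F. DESeq2 1.42.0, limma 3.58.1 on log2(signal + 1), RLE and upper-quartile scaling, other filters, a replicate block and left-out libraries were alternatives. Library totals of 20018234 to 37149112 counts set the precision, and low members such as Ppara and Esrrg rest on under 100 counts a library.

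Members, lists and tests were chosen with earlier results of these data known. Named genes were the members, up to 2 called genes with the largest rise and up to 2 with the largest fall in each list with a mean of at least 100 counts, and the 5 genes most like Ppargc1a. Of the genes under this rule, 1 is not reported here. Marker lists were those of neurons, interneurons, astrocytes, oligodendrocyte lineage, microglia, endothelial, mesenchymal, proliferating and multiciliated ependymal cells. Sequences came from the study's reagent list, RefSeq tables (GRCm38.p6) and GENCODE transcripts, and no genome sequence was used. Sequences of Ppargc1b are not reported here.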

Additional observations from a re-analysis of the deposited data

How the results depend on the processing

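Ppargc1a was called under every alternative run, with log2 fold changes from 0.27 to 0.32 when single libraries were left out and from 0.26 to 0.31 otherwise. The number of members called higher was 2, and it ran from 1 to 3 over left-out libraries and was 3 with DESeq2, where Esrra joined. None was called lower in any of these fits. Without control replicates 1 and 2, genes of the 7 lists called higher went from 25 to 32 and those called lower from 16 to 28. Among the 28 were 3 mitochondrially encoded genes. The cause was not tested. Estimates near 0 changed sign: Ppargc1b was -0.014 with upper-quartile scaling and ran from -0.024 to 0.035 over left-out libraries, and Tfam ran from -0.016 to 0.0092. The difference in mitochondrially encoded share was -0.000422 percentage points over protein-coding counts and ran from -0.169 to 0.0987 over left-out libraries. It was -0.353 without control replicates 1 and 2, an alternative chosen after seeing the data, which took out the lowest shares of all libraries. Replicate numbers did not pair the libraries (correlations of deviations from -0.034 to 0.078), and with the replicate block Ppargc1a stayed at 0.30 (edgeR adjusted p = 0.000420) and Ppara at 0.40 (adjusted p = 0.0405), with 2 members called higher, 24 list genes higher and 14 lower. Counts limit Ppara and Esrrg, and 6 mitochondrial genes listed at 0 limit the share.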

Other observations

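Of 6 oligodendrocyte lineage markers 4 were called higher and none lower, with a summed level of 450 ± 112 CPM in control and 836 ± 90.0 in mimic, and the ranges (388 to 677 and 763 to 957) did not overlap. Olig1 made up most of this sum, at 369.8 and 720.3 CPM. Of 6 mesenchymal markers 2, Acta2 and Tagln, were called lower, with the sum of all 6 at 220 ± 23.5 and 132 ± 43.3 CPM, and of 6 multiciliated ependymal markers 4 were called lower, with the sum at 105 ± 6.86 and 80.6 ± 8.94 CPM. Of 3 tested endothelial markers Kdr was called lower, at 58.6 ± 8.31 and 37.6 ± 9.38 CPM, and Pecam1 and Cdh5 were each under 1 CPM and not called. None of the 6 microglia markers was called, at 9.34 ± 0.748 and 9.996 ± 2.55 CPM. One neuron marker was called lower, and among the interneuron markers 1 was called higher and 1 lower. Centred within groups over the 12 libraries, Ppara had r = 0.57 with the summed interneuron markers, 0.46 with those of the oligodendrocyte lineage, 0.29 with astrocyte, 0.19 with neuron, -0.037 with proliferating, -0.088 with mesenchymal, -0.18 with microglia, -0.37 with multiciliated ependymal and -0.39 with endothelial markers, as a description.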
